A study of Mus musculus with 2 samples.

Results

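Intergenic peaks within 100 kb of a gene are stretches of open chromatin that lie between genes, near enough to an annotated transcript start to be assigned to it. They were taken from the deposited peak table as the peaks annotated distal intergenic with a distance to the nearest start under 100 kb on either side. The rule selected 19931 of 83549 peaks (23.9%), and these are 93.9% of the 21231 distal intergenic peaks. Signal played no part in the choice. Of these peaks, 11423 (57.3%) lay upstream of the nearest start and 8508 downstream of it, all 8508 beyond the end of the gene.

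Open chromatin was read by ATAC-seq, which inserts sequencing adapters where the Tn5 transposase can reach DNA, in hearts of 4-day-old mice. One pool of 6 Wtap-CKO mice, a cardiomyocyte-specific knockout of Wtap, was set against 1 pool of 7 Wtapflox/flox mice, whose Wtap alleles are floxed. The driver of the deletion in cardiomyocytes is not given in the sources used here. As each genotype is a single library, differences lack a replicate check, no test was run, and each statement compares these pools.

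Open chromatin between genes often marks enhancers and other distal regulatory elements, which transcription factors bind and which act on promoters that can be far away on the same chromosome. Such elements tend to differ more between cell types than promoters do, and in the heart they include the enhancers that cardiac factors use to drive muscle genes. The nearest gene is only a convenient label, because an enhancer can skip it. Wtap belongs to the methyltransferase complex of the nucleus that writes N6-methyladenosine into RNA.

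The libraries held 9816384 reads in peaks for Wtap-CKO and 9835753 for Wtapflox/flox, and by the totals that the authors' scaling implies these were 14.5% of the whole for Wtap-CKO and 16.8% for Wtapflox/flox. With that scaling the log2 ratio in the authors' deposited table had a median of -0.21 over all peaks, whereas the ratios used here are scaled to the reads in peaks. The promoter peak of the gene taken as Wtap held 606 reads from Wtap-CKO hearts and 651 from Wtapflox/flox hearts, no intergenic peak was assigned to that gene, and the peaks therefore did not check the genotype. The 57 promoter peaks of genes annotated to cardiac muscle contraction had a median of 21.7 CPM, the count per 1000000 reads in peaks, in both libraries, against 14.1 in Wtap-CKO and 14.4 in Wtapflox/flox for all promoter peaks. Gene symbols are not paired with the identifiers in the files, so genes are described by position and by the Gene Ontology (GO) terms in the table.

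The intergenic peaks took a slightly larger part of the reads in peaks in the knockout, but a smaller part of the whole library. They held 1590113 reads from Wtap-CKO hearts and 1530525 from Wtapflox/flox hearts, which is a share of 16.2% for Wtap-CKO among all reads in peaks (95% exact binomial interval 16.18 to 16.22) and 15.6% for Wtapflox/flox (15.54 to 15.58). Of the library totals that the authors' scaling implies, they held 2.35% in Wtap-CKO and 2.62% in Wtapflox/flox, so the direction of this difference depends on the total used. The median peak had 53 reads from Wtap-CKO hearts and 49 from Wtapflox/flox hearts over a width of 315 bp. Over all 19931 peaks the median log2 ratio of CPM, Wtap-CKO over Wtapflox/flox with 0.5 CPM added to each, was 0.06, with a middle range of -0.34 to 0.48. Intervals here and below cover counting error only, not the spread between animals or library preparations. As the tissue is a mixture of cells, fewer cells of a type and less accessibility per cell cannot be told apart.

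Large differences were few, and more of them were rises than falls. A floor at a mean of 3.92 CPM, about 38.5 reads in each library, kept 12991 of the intergenic peaks, and a peak was called at a 2-fold difference. Of these, 581 (4.47%) were higher in Wtap-CKO and 217 (1.67%) were lower. Over all 62662 peaks past the floor, 3.50% were higher and 1.45% were lower. The intergenic shares lie near that background, and 68.6% of the intergenic peaks past the floor had a log2 ratio within 0.5 of 0. Only 14 peaks were 4-fold higher and 4 were 4-fold lower.

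The direction of that split rests on the scaling, and the other splits of higher and lower peaks use reads in peaks unless the authors' table is named. Under the log2 ratio in the authors' deposited table, 370 of the same peaks were 2-fold higher and 668 were 2-fold lower, so the rises made up 35.6% of the calls, against 72.8% after scaling to reads in peaks. In the authors' deposited table the intergenic median was -0.15, against -0.21 for all peaks. The change of scaling shifts nearly all ratios by the same amount. The order of these 2 medians could therefore hardly change with it and is no separate check.

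Intergenic peaks stood apart from promoters and resembled introns. The median log2 ratio of promoter peaks within 1 kb was -0.06, which is 0.12 below the intergenic median. Of those past the floor only 1.38% were higher in Wtap-CKO and 0.841% were lower. Both shares were below the intergenic 4.47% and 1.67%. Intron peaks had a median of 0.04, with 4.49% higher and 1.95% lower. The 1300 intergenic peaks at 100 kb or farther had a median of 0.08, with 7.50% higher and 2.39% lower. The histogram of log2 ratios shows the intergenic peaks as a wider curve, shifted to the right of the promoters.

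**Figure D1:**
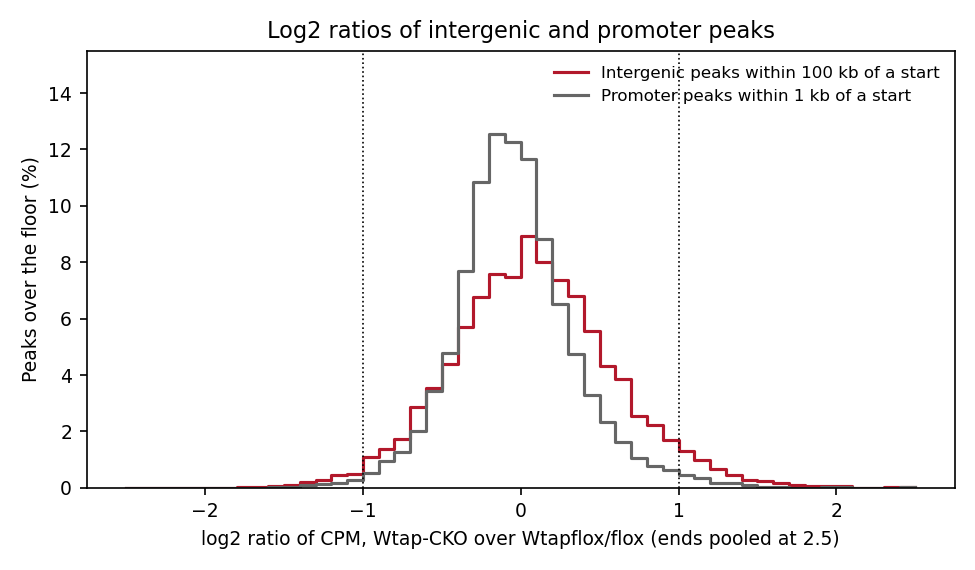
Share of peaks past the floor (%) in steps of 0.1 on the log2 ratio of CPM, Wtap-CKO over Wtapflox/flox, for intergenic peaks within 100 kb (red) and promoter peaks within 1 kb (grey), with dotted lines at 2-fold. The intergenic curve is broader, and 4.47% of it lies past the right line, against 1.38% of the promoter curve. Past the left line lie 1.67% and 0.841%.

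Signal strength moved with these class differences. The median intergenic peak had 5.14 CPM, the median intron peak 5.60 and the median promoter peak 14.2. Among peaks of 3.92 to 6 CPM, 6.67% of 4604 intergenic peaks were 2-fold higher in Wtap-CKO, against 5.82% of promoter peaks. Among peaks of 20 CPM or more the shares were 1.46% of 1302 intergenic peaks and 0.0802% of promoter peaks. Lower peaks made up 2.17% of intergenic and 3.10% of promoter peaks in the weakest band, and 0.691% and 0.115% in the strongest. The medians of the intergenic peaks ran from 0.10 in the weakest band through 0.09 and 0.03 to -0.01 in the strongest. Those of the promoter peaks ran from 0.00 through -0.02 and -0.05 to -0.08. The share of higher peaks and the median thus both stayed above those of promoters in every band. The excess of the intergenic median over 0 was not seen in the strongest peaks.

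**Figure D2:**
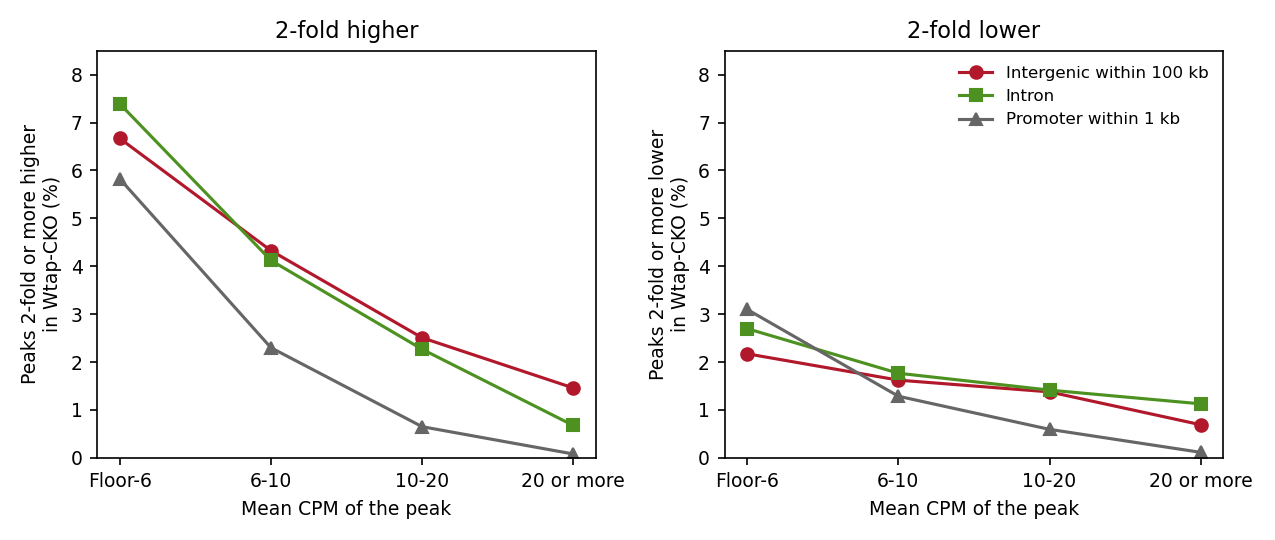
Share of peaks 2-fold or more higher (left panel) or lower (right panel) in Wtap-CKO, by mean CPM of the peak, for intergenic peaks within 100 kb (red circles), intron peaks (green squares) and promoter peaks within 1 kb (grey triangles). All 3 classes have fewer 2-fold differences as signal increases, and intergenic peaks lie close to intron peaks except at 20 CPM or more, where 1.46% and 0.676% were higher.

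Peaks that the peak caller marked in a single library were common, and they were the weak ones. Both libraries had a call at 10925 intergenic peaks (54.8%), only the Wtap-CKO library at 4173 (20.9%) and only the Wtapflox/flox library at 4833 (24.2%). Over all peaks the 1-library shares were 17.6% for Wtap-CKO only and 21.2% for Wtapflox/flox only. Peaks called in Wtap-CKO only had medians of 41 reads from Wtap-CKO hearts and 22 from Wtapflox/flox hearts, and those called in Wtapflox/flox only had 25 from Wtap-CKO hearts and 37 from Wtapflox/flox hearts. Most of the 2-fold calls came from such peaks: 394 of the 581 higher peaks were called in Wtap-CKO only, and 144 of the 217 lower peaks in Wtapflox/flox only. The call marks come from the same reads as the ratios and are no separate evidence. Among peaks of up to 250 bp both libraries had a call at 9.28%, and among the 669 peaks wider than 750 bp at 99.0%. These wide peaks had a median log2 ratio of 0.13, with 19 higher (2.84%) and 3 lower (0.448%). Both shares were below the 4.47% and 1.67% of all intergenic peaks past the floor.

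Ratios differed little with distance from the nearest start. The closest peak lay 3001 bp from a start, the median at 17561 bp (middle range 9032 to 33885 bp) and the farthest at 99971 bp. The median log2 ratio was 0.07 for 5640 peaks at 3 to 10 kb, 0.06 for 7075 at 10 to 25 kb, 0.05 for 4564 at 25 to 50 kb and 0.02 for 2652 at 50 to 100 kb. Higher peaks made up 4.56%, 4.01%, 4.93% and 4.82% of the peaks past the floor in these bins, and lower peaks 1.35%, 1.40%, 2.20% and 2.38%. Lower peaks were thus a larger share in the 2 bins beyond 25 kb, and higher peaks showed no order. Signal moved with distance as well, since the median peak had 5.83 CPM in the nearest bin and 4.38 in the farthest. Among peaks of 6 to 10 CPM, an alternative added after seeing the data, the median under 10 kb exceeded the median beyond 50 kb by 0.10, against 0.05 over all signal levels.

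Upstream and downstream peaks had nearly the same values. The median log2 ratio was 0.05 upstream and 0.07 downstream, with 342 (4.58%) higher upstream and 239 (4.33%) higher downstream, and 122 (1.63%) lower upstream and 95 (1.72%) lower downstream. Downstream peaks had the larger median in each bin up to 50 kb, and beyond 50 kb both sides were at 0.02. At the far edge of the rule, the last peak inside 100 kb lay 99971 bp upstream of a start on chromosome 3 and had 22 reads from Wtap-CKO hearts and 27 from Wtapflox/flox hearts. The first one outside lay 100079 bp downstream on chromosome 7 and had 93 reads from Wtap-CKO hearts and 45 from Wtapflox/flox hearts.

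**Figure D3:**
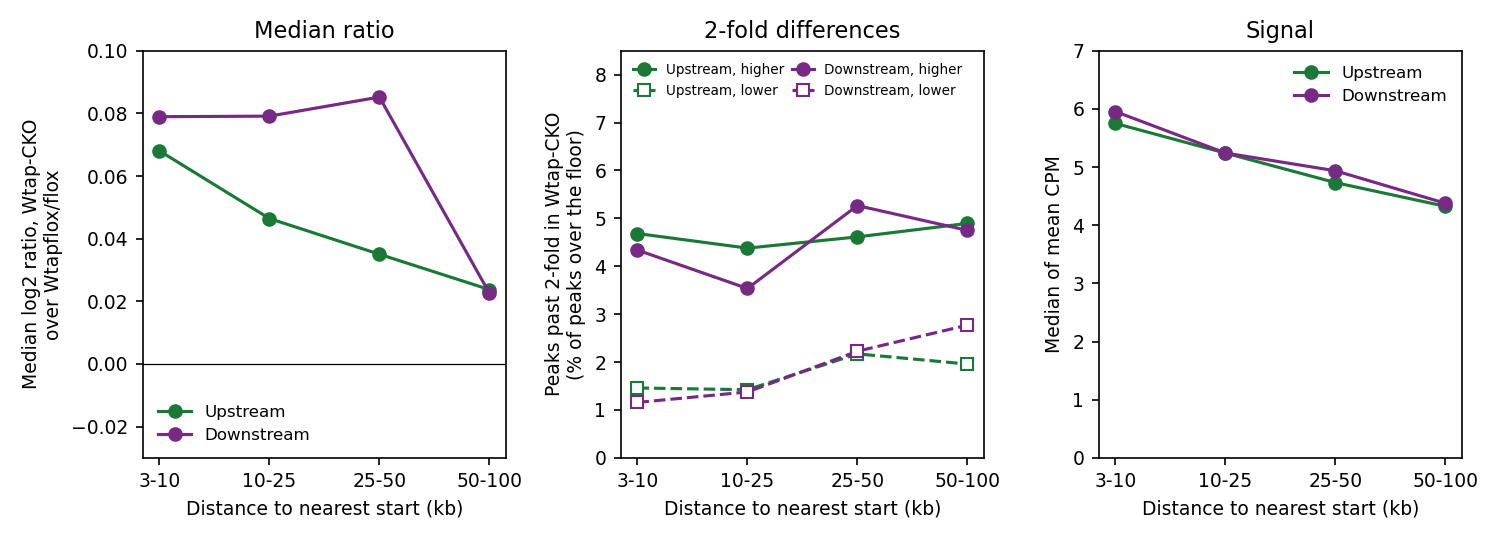
Intergenic peaks upstream (green) and downstream (purple) of the nearest start in 4 distance bins: the median log2 ratio, Wtap-CKO over Wtapflox/flox (left), the share of peaks past the floor that were 2-fold higher (filled circles) or lower (open squares) in Wtap-CKO (middle), and the median of mean CPM (right). Lower peaks run from 1.35% in the nearest bin to 2.38% in the farthest over both sides together, while median signal runs from 5.83 to 4.38 CPM.

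The median log2 ratio ran from 0.00 on chromosome 1 to 0.12 on chromosome 18 among the autosomes and was -0.02 on chromosome X. Chromosome Y, with only 19 peaks and 13 past the floor, had the highest median, 0.23, and 1 higher peak. Chromosome 14 had the largest share of lower peaks, 19 of 508 past the floor (3.74%). Chromosome 18 had the smallest among the autosomes, 2 of 533 (0.375%), where 1.67% of all intergenic peaks past the floor were lower. Another 57 peaks lay on unplaced scaffolds, with a median of 0.15 and no 2-fold call.

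Among the peaks at or above the median signal of all peaks, the 10 largest rises spanned log2 ratios of 1.74 to 2.34 and the 10 largest falls -1.54 to -2.52. Of the 10 rises, 2 lay near genes with GO terms, where 31.7% of all intergenic peaks did. Counts for each of the 20 peaks are drawn in the plot of reads per library.

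**Figure D4:**
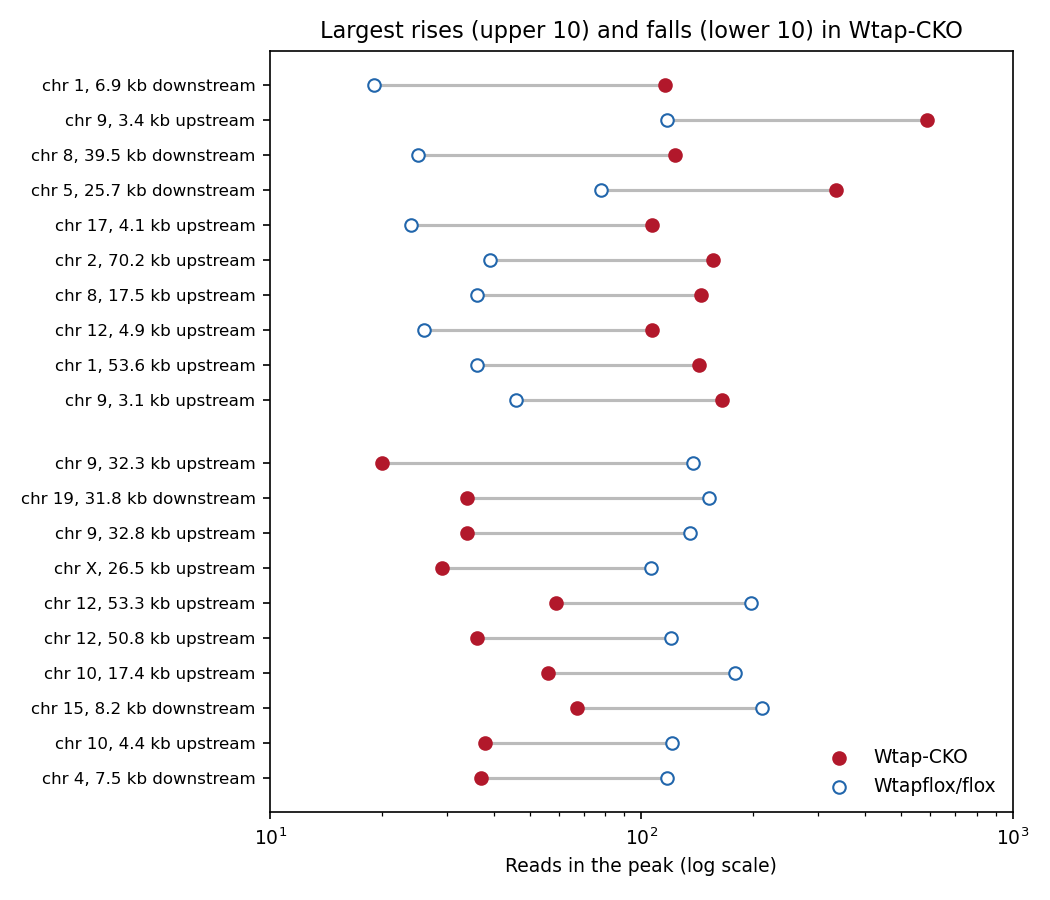
Reads in the 10 intergenic peaks with the largest rise (upper group) and the 10 with the largest fall (lower group), on a log axis, in Wtap-CKO (filled red) and Wtapflox/flox (open blue), each peak named by chromosome and distance to the nearest start. The rises hold 107 to 589 reads from Wtap-CKO hearts and 19 to 117 from Wtapflox/flox hearts, and the falls 20 to 67 from Wtap-CKO hearts and 106 to 211 from Wtapflox/flox hearts.

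The rise with the most reads was a wide peak on chromosome 9 with a second rise beside it. The peak at chr9:14600212-14601458 (GRCm39), 1247 bp wide and 3361 bp upstream of a gene without GO terms, held 589 reads from Wtap-CKO hearts and 117 from Wtapflox/flox hearts, a log2 ratio of 2.29 (95% interval 2.05 to 2.63). At a gap of 12060 bp lay the peak at chr9:14587506-14588152, with 165 reads from Wtap-CKO hearts and 46 from Wtapflox/flox hearts, a log2 ratio of 1.74 (1.37 to 2.35). An intron peak 8740 bp from the wide peak had 201 reads from Wtap-CKO hearts and 108 from Wtapflox/flox hearts, a log2 ratio of 0.87. All 3 neighbouring peaks were therefore higher in Wtap-CKO, 2 of them past 2-fold.

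A second strong rise lay downstream of a lipid gene. The peak at chr5:35793184-35793853 held 335 reads from Wtap-CKO hearts and 78 from Wtapflox/flox hearts, a log2 ratio of 2.04 (1.75 to 2.48). It lies 25741 bp downstream of the start of ENSMUSG00000029098, whose GO terms name a peroxisomal acyl-CoA oxidase, an enzyme of the breakdown of fatty acids in the peroxisome. Another 4 intergenic peaks of that gene lie within 10 kb of one another in the same run. From the start of the run outwards they held 147, 117, 84 and 73 reads from Wtap-CKO hearts, against 56, 67, 74 and 68 from Wtapflox/flox hearts. All 5 peaks of the run were above 0, and 2 of them past 2-fold. The run as a whole held 756 reads from Wtap-CKO hearts and 343 from Wtapflox/flox hearts, a log2 ratio of 1.13 (0.96 to 1.33). The promoter peaks of the same gene held 413 reads from Wtap-CKO hearts and 432 from Wtapflox/flox hearts and did not share the rise.

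Within the same signal limit, the peak with the largest ratio held fewer reads. The peak at chr1:155945906-155946263, 6947 bp downstream of the start of a gene with terms for nuclear envelope organisation and ATPase activation, held 116 reads from Wtap-CKO hearts and 19 from Wtapflox/flox hearts, a log2 ratio of 2.34 (1.91 to 3.40). Its gene's promoter held 273 reads from Wtap-CKO hearts and 263 from Wtapflox/flox hearts. On chromosome 8, the peak at chr8:34666110-34666541 held 145 reads from Wtap-CKO hearts and 36 from Wtapflox/flox hearts, and the intergenic peak 12381 bp from it held 59 reads from Wtap-CKO hearts and 14 from Wtapflox/flox hearts. There the promoter of the nearest gene was also higher, at 78 reads from Wtap-CKO hearts and 44 from Wtapflox/flox hearts, a log2 ratio of 0.76. The other rises, on chromosomes 1, 2, 8, 12 and 17, held 107 to 156 reads from Wtap-CKO hearts and 24 to 39 from Wtapflox/flox hearts.

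The falls included 2 pairs of neighbouring peaks. At chr9:123730333-123730645 there were 20 reads from Wtap-CKO hearts and 138 from Wtapflox/flox hearts, a log2 ratio of -2.52 (-3.54 to -2.10). Only 177 bp away, chr9:123730822-123731157 held 34 reads from Wtap-CKO hearts and 135 from Wtapflox/flox hearts, a log2 ratio of -1.84. They lie 32295 and 32784 bp upstream of the same gene without GO terms, and both were called in Wtapflox/flox only.

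The second pair lies more than 50 kb upstream of ENSMUSG00000020572, a gene with terms for NAD biosynthesis and cytokine activity. The peak at chr12:32815800-32816223 held 59 reads from Wtap-CKO hearts and 197 from Wtapflox/flox hearts, a log2 ratio of -1.66. Its neighbour at chr12:32818324-32818705 held 36 reads from Wtap-CKO hearts and 120 from Wtapflox/flox hearts, a log2 ratio of -1.61. The promoter of that gene differed less, with 606 reads from Wtap-CKO hearts and 700 from Wtapflox/flox hearts, a log2 ratio of -0.20. A further peak of the same run, at the far side of the first, held 46 reads from Wtap-CKO hearts and 44 from Wtapflox/flox hearts and did not fall.

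One fall lies near a muscle gene and one near a gene for a transcription factor. The peak at chr10:88458434-88458845, 17420 bp upstream of a gene with terms for muscle contraction and myosin binding, held 56 reads from Wtap-CKO hearts and 179 from Wtapflox/flox hearts, a log2 ratio of -1.59 (-2.13 to -1.23). The peak at chr10:80325943-80326269 lies 4400 bp upstream of a gene for a sequence-specific DNA-binding activator and held 38 reads from Wtap-CKO hearts and 121 from Wtapflox/flox hearts. The remaining 4 falls, on chromosomes 4, 15, 19 and X, held 29 to 67 reads from Wtap-CKO hearts and 106 to 211 from Wtapflox/flox hearts. The one on chromosome 4 lies near a weak promoter peak with 35 reads from Wtap-CKO hearts and 20 from Wtapflox/flox hearts. Its log2 ratio was 0.68, with an interval that included 0 (-0.02 to 1.68).

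At the 2-fold line itself the calls turn on small steps. The peak at chr14:118238311-118239543, with 353 reads from Wtap-CKO hearts and 174 from Wtapflox/flox hearts, was just past it. The one at chr3:5925306-5925986, with 4805 reads from Wtap-CKO hearts and 2409 from Wtapflox/flox hearts, was just short of it, with an interval of 0.93 to 1.07. On the lower side, 79 reads from Wtap-CKO hearts against 164 from Wtapflox/flox hearts counted as a fall, and 28 from Wtap-CKO hearts against 61 from Wtapflox/flox hearts did not. These values are set side by side as a description of the threshold.

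The 8 intergenic peaks with the highest signal held 1393 to 8448 reads from Wtap-CKO hearts and 1551 to 8317 from Wtapflox/flox hearts, and none passed 2-fold. The strongest, chr14:3051323-3054019, had 8448 reads from Wtap-CKO hearts and 8317 from Wtapflox/flox hearts, a log2 ratio of 0.03 (-0.02 to 0.07). Next to the chromosome 3 peak above, the largest difference among the 8 was at chr11:108902372-108903018, with 4416 reads from Wtap-CKO hearts and 2532 from Wtapflox/flox hearts, a log2 ratio of 0.80 (0.73 to 0.88). How uniquely reads map to such peaks was not tested.

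One of these 8 peaks lies at a gene of the contractile apparatus. The peak at chr14:55241208-55242463, 9125 bp upstream of a gene with terms for a muscle myosin motor and the force of heart contraction, held 1484 reads from Wtap-CKO hearts and 1808 from Wtapflox/flox hearts, a log2 ratio of -0.28 (-0.38 to -0.18). The intergenic peak 758 bp from it held 404 reads from Wtap-CKO hearts and 489 from Wtapflox/flox hearts, a log2 ratio of -0.27. The promoter of the gene held 381 reads from Wtap-CKO hearts and 438 from Wtapflox/flox hearts, a log2 ratio of -0.20. All 3 were lower in Wtap-CKO by a like amount, far from 2-fold.

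Grouped by the GO terms of the nearest gene, 12 lists were described, and none can be read as more than a count in these 2 libraries. GO terms were present for 6322 of the intergenic peaks, absent for 12315 and left out for 1294. The medians below are of list peaks past the floor, for which the median was 0.06 over all intergenic peaks and 0.00 over all peaks. Under the authors' scaling these medians lie lower, as do all peaks, by the shift of -0.21 given above, so that a list median between 0 and that size changes sign. With the peaks under the floor included, the median was -0.01 for the extracellular matrix list and -0.04 for heart development, and no other list median had the opposite sign.

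Few peaks at genes of the contracting heart muscle cell passed 2-fold by reads in peaks. All that did in these muscle and heart lists were higher, where 4.47% of all intergenic peaks past the floor were higher and 1.67% lower. The sarcomere is the contractile unit of muscle, but some genes with a sarcomere or myofibril term also have unlike terms, such as mitotic cytokinesis. Of 109 intergenic peaks at 57 such genes, 86 passed the floor, with a median of 0.07, 5 higher (5.81%) and none lower. The list for heart contraction or conduction had 37 of 48 peaks past the floor, with a median of -0.12, 1 higher (2.70%) and none lower, and 12 of the 37 lay above 0. The sarcoplasmic reticulum list, named for the calcium store of muscle cells, had 21 of 32 past the floor, with a median of -0.19 and no call. Over all 32 of its peaks the median was -0.06, and the summed reads gave a log2 ratio of 0.01. For the intercalated disc, the junction between heart muscle cells, 13 of 18 passed, with a median of 0.43, 2 of them higher (15.4%). The 91 of 117 heart development peaks past the floor had a median of 0.00, with 5 higher (5.49%) and none lower. In the authors' deposited table, the peak lowest by reads in peaks in the sarcomere list had a log2 ratio of -1.03, past 2-fold. That of heart contraction and heart development was at -1.14, of the sarcoplasmic reticulum at -1.27 and of the intercalated disc at -0.59. The highest, chosen likewise, were at 1.56 (sarcomere, intercalated disc), 1.01 (heart contraction), 1.004 (heart development) and 0.37 (sarcoplasmic reticulum). Calls per list were not counted under that scaling. The lists overlap, since the peak with the largest ratio in the sarcomere list is also the largest of the intercalated disc list.

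That shared peak, chr3:36494016-36494249, held 81 reads from Wtap-CKO hearts and 23 from Wtapflox/flox hearts, a log2 ratio of 1.62 (1.14 to 2.56). It lies 12228 bp downstream of the start of a gene with terms for calcium-dependent phospholipid binding. The intergenic peak 226 bp away held 213 reads from Wtap-CKO hearts and 111 from Wtapflox/flox hearts, a log2 ratio of 0.91. The promoter of the gene went the other way, with 1057 reads from Wtap-CKO hearts and 1383 from Wtapflox/flox hearts, a log2 ratio of -0.38.

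Some strong peaks of contractile genes were lower in Wtap-CKO without reaching 2-fold by reads in peaks, but the sarcomere or myofibril list did not lean that way. Of its 86 peaks past the floor 50 lay above 0, and its summed reads gave a log2 ratio of 0.04 (0.003 to 0.070). The sum for heart contraction or conduction was -0.07 (-0.11 to -0.03). At ENSMUSG00000020315 of the sarcomere list, all 6 intergenic peaks past the floor were above 0, with a summed log2 ratio of 0.63. At a gene with terms for the force of heart contraction and heart morphogenesis on chromosome 5, all 3 intergenic peaks were below 0. Together they held 1397 reads from Wtap-CKO hearts and 1730 from Wtapflox/flox hearts, a log2 ratio of -0.30 (-0.41 to -0.20). Its promoter had a log2 ratio of -0.54. At a cardiac myofibril myosin gene, the peak at chr2:155448269-155448672 held 167 reads from Wtap-CKO hearts and 295 from Wtapflox/flox hearts, a log2 ratio of -0.80, and the promoter had 133 reads from Wtap-CKO hearts and 237 from Wtapflox/flox hearts, a log2 ratio of -0.81. There the intergenic peak and the promoter moved alike.

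The opposite was seen at a troponin gene on chromosome 1. Troponin is the calcium sensor of the thin filament. The peak at chr1:135782397-135784437, annotated to a gene with terms for the troponin complex and tropomyosin binding, held 1470 reads from Wtap-CKO hearts and 979 from Wtapflox/flox hearts, a log2 ratio of 0.59. The other 2 intergenic peaks of the run are annotated to another gene, 7210 and 3910 bp upstream of it, which has no GO terms. They held 615 and 118 reads from Wtap-CKO hearts, against 444 and 81 from Wtapflox/flox hearts. All 3 were above 0, and the run held 2203 reads from Wtap-CKO hearts and 1504 from Wtapflox/flox hearts. The promoter of the troponin gene had a log2 ratio of -0.17.

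**Figure D5:**
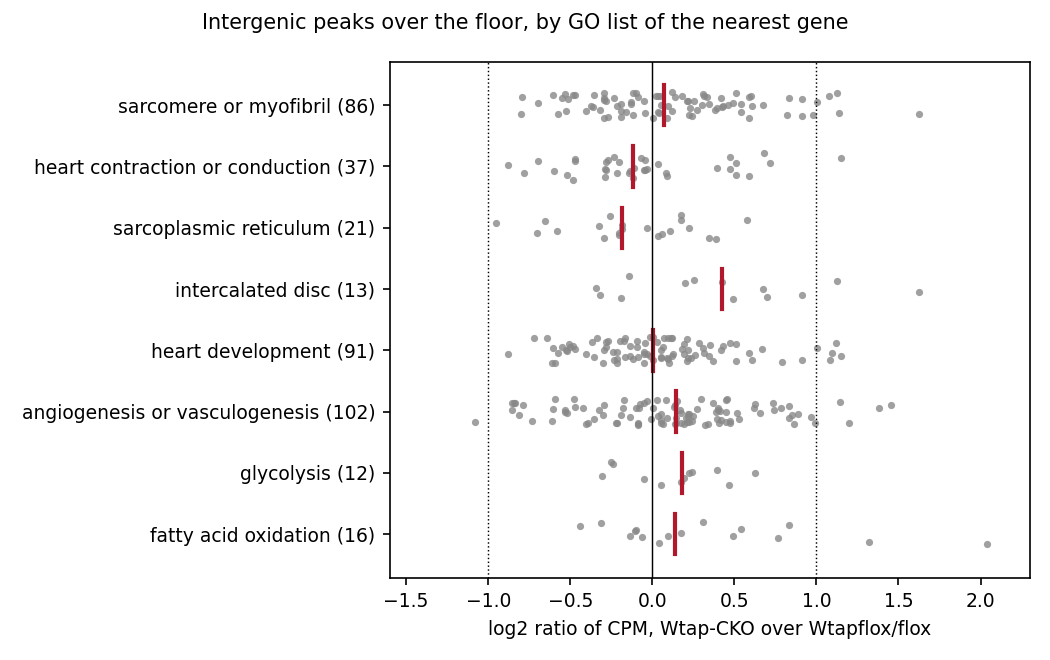
Log2 ratio of CPM, Wtap-CKO over Wtapflox/flox, of each intergenic peak past the floor (grey points, spread vertically at random) in 8 GO lists of the nearest gene, with the number of peaks in brackets and the median as a red bar; dotted lines mark 2-fold. Medians of the peaks drawn run from -0.19 for the sarcoplasmic reticulum to 0.43 for the intercalated disc, whereas with peaks under the floor included the lowest was heart contraction or conduction at -0.14, and all but a few points lie within 2-fold.

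Lists of metabolic genes were small. Fatty acid oxidation had 16 of 18 peaks past the floor, with a median of 0.14. Of these, 2 were higher (12.5%), against 4.47% of all intergenic peaks past the floor. Both belong to the acyl-CoA oxidase gene described above, which supplies 5 of the 18. Glycolysis had 12 of 14 past the floor, with a median of 0.18 and no call. Its extremes were 95 reads from Wtap-CKO hearts and 60 from Wtapflox/flox hearts upstream of an aldolase gene, and 45 reads from Wtap-CKO hearts against 57 from Wtapflox/flox hearts downstream of the start of an enolase gene.

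In the lists of other cell types and of general regulation, 3.33% to 4.86% of the peaks past the floor were higher and 0.980% to 2.19% lower, against the same 4.47% and 1.67% of all intergenic peaks. Angiogenesis or vasculogenesis had 102 of 129 peaks past the floor, with a median of 0.14, 4 higher and 1 lower. The extracellular matrix list had 150 of 217, with a median of 0.04, 5 higher and 2 lower. Immune or inflammatory response had 185 of 264, with a median of 0.12, 9 higher and 3 lower. Those 3 lists stand in for vessel, fibroblast and leukocyte genes, which whole hearts also hold, but the terms do not belong to 1 cell type, and their part in the other results was not tested. Neuron differentiation or axon had 240 of 359, with a median of 0.06, 10 higher and 4 lower. DNA-binding transcription factor genes had 228 of 313, with a median of 0.07, 11 higher and 5 lower.

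The extremes of these lists show what a call looks like at moderate depth. The highest angiogenesis peak, chr11:89950011-89950476, held 151 reads from Wtap-CKO hearts and 52 from Wtapflox/flox hearts, a log2 ratio of 1.46. It lies 28837 bp downstream of the start of a gene with terms for endocardial cushion development and Notch signalling, whose promoter had 63 reads from Wtap-CKO hearts and 101 from Wtapflox/flox hearts. The peak and the promoter thus differed in direction. The highest immune peak lies upstream of a gene for an insulin-like growth factor binding protein and held 63 reads from Wtap-CKO hearts and 16 from Wtapflox/flox hearts. The lowest one lies upstream of a protein tyrosine kinase gene with a term for adaptive immunity and held 40 reads from Wtap-CKO hearts and 114 from Wtapflox/flox hearts. Its promoter differed little, with 260 reads from Wtap-CKO hearts and 282 from Wtapflox/flox hearts. In the matrix list, the lowest peak, chr11:28767427-28767904, lies upstream of a gene with terms for an extracellular ligand of the epidermal growth factor receptor and held 80 reads from Wtap-CKO hearts and 210 from Wtapflox/flox hearts, a log2 ratio of -1.34. The highest neuron peak lies near an olfactory receptor gene, with 140 reads from Wtap-CKO hearts and 39 from Wtapflox/flox hearts. Among transcription factor genes, the highest peak held 96 reads from Wtap-CKO hearts and 30 from Wtapflox/flox hearts, and the lowest held 16 reads from Wtap-CKO hearts and 62 from Wtapflox/flox hearts.

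Intergenic peaks were often alone. With a gap of up to 10 kb joining neighbours, 9453 of the 19931 (47.4%) had no partner, and 1414 runs of 3 or more held 5492 peaks. In 226 of these runs every peak was above 0, and in 132 every peak was below 0. Summed over the run, 13 were 2-fold higher in Wtap-CKO and 1 was 2-fold lower. Of the peaks in these runs, 54.6% lay above 0. The split turned with the scaling, a comparison added after seeing the data. By the RPM and log2 ratios in the authors' deposited table, 39.6% of these peaks lay above 0, with 92 runs wholly above 0 and 270 wholly below it, and 4 run sums were 2-fold higher and 10 were 2-fold lower.

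The run with the most changed reads was on the unplaced scaffold JH584304.1, where 20 peaks held 11217 reads from Wtap-CKO hearts and 9807 from Wtapflox/flox hearts, a log2 ratio of 0.20 (0.16 to 0.24). How uniquely reads map there was not tested either. A run of 7 peaks over chr5:122648670-122682007 went the other way, with 1287 reads from Wtap-CKO hearts and 1982 from Wtapflox/flox hearts, a log2 ratio of -0.62 (-0.72 to -0.52). Every peak of that run was below 0, from -0.06 to -2.30. The peak at -2.30 held only 6 reads from Wtap-CKO hearts and 49 from Wtapflox/flox hearts, and its mean of 2.80 CPM is under the floor. The intervals of the peaks at -0.06 and -0.26 included 0. Its strongest peak held 441 reads from Wtap-CKO hearts and 718 from Wtapflox/flox hearts.

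Runs with larger ratios were looked up after the values had been seen. At chr8:47321308-47329414, 3 peaks held 144, 89 and 191 reads from Wtap-CKO hearts, against 74, 41 and 64 from Wtapflox/flox hearts, a summed log2 ratio of 1.22 (0.99 to 1.51). At chr17:29628747-29642547, 4 peaks together held 543 reads from Wtap-CKO hearts and 940 from Wtapflox/flox hearts, a log2 ratio of -0.78 (-0.94 to -0.63). In both runs every peak lay on 1 side of 0.

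Neighbouring peaks shared a little of their differences. Over 949 pairs of adjacent peaks past the floor with a gap under 1 kb, the Pearson correlation of log2 ratios was 0.27, and 59.5% had the same sign. Over 1713 pairs at 1 to 5 kb the correlation was 0.18. At gaps of 100 kb or more, 4307 pairs had a correlation of 0.01. These correlations run across peaks of the same 2 libraries and are a description. When both peaks of a pair passed 2-fold at a gap under 5 kb, they did so in the same direction. Under 1 kb there were 8 pairs with both higher and 1 with both lower, and at 1 to 5 kb there were 10 and 2, with none opposite.

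The nearest genes numbered 10195, of which 5534 had 1 intergenic peak, 4011 had 2 to 4 and 650 had 5 or more. The gene with the most, 35 peaks on the unplaced scaffold, held 17133 reads from Wtap-CKO hearts and 15467 from Wtapflox/flox hearts. The next had 15, 14, 13 and 13 peaks, with summed log2 ratios of 0.20 on chromosome 6, 0.24 on chromosome 13, -0.10 on chromosome X and -0.41 on chromosome 3. At the last of these, 2 of 13 peaks were above 0, with 1610 reads from Wtap-CKO hearts and 2150 from Wtapflox/flox hearts in all.

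Among the 650 genes with 5 or more peaks, 6 had a sum that was 2-fold higher and none had a sum that was 2-fold lower. By RPM in the authors' deposited table these counts were 1 higher and 4 lower. One such gene, named after its values were seen, is ENSMUSG00000113367 on chromosome 13, which has no GO terms. Its 10 intergenic peaks held 697 reads from Wtap-CKO hearts and 325 from Wtapflox/flox hearts, a log2 ratio of 1.09 (0.91 to 1.30), with all 10 above 0 and 7 past 2-fold. On the lower side, likewise named after the fact, the 8 peaks of ENSMUSG00000083492 on chromosome X held 193 reads from Wtap-CKO hearts and 359 from Wtapflox/flox hearts, a log2 ratio of -0.88 (-1.15 to -0.64), with none above 0.

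Intergenic peaks and the promoter of the nearest gene hardly moved together. The intergenic sums here are of peaks past the floor, while promoter peaks were summed without a floor. Over 3137 genes with both, the Pearson correlation between the summed intergenic ratio and the promoter ratio was 0.09 and Spearman's rho was 0.11. The part of counting error in these correlations was not tested. At 82 genes whose intergenic sum was 2-fold higher the promoters had a median log2 ratio of -0.04, and 1 promoter was 2-fold higher and 2 were 2-fold lower. At 34 genes whose intergenic sum was 2-fold lower the promoter median was -0.02, and none was 2-fold higher and 1 was 2-fold lower. At the 1719 genes with a sum from 0 to under 2-fold higher, 27 promoters were 2-fold higher and 18 lower, and at the 1302 with a sum below 0 but short of 2-fold, 19 were higher and 15 lower. Over all 3137 genes the promoter median was -0.09.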

How the data were processed

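ATAC-seq libraries of 1 Wtap-CKO pool and 1 Wtapflox/flox pool were compared, grouped by the genotype in the labels. Per the submitters' processing notes the build is GRCm39 and the tools were ChIPseeker, HOMER 4.11, MACS2 2.1.0, BWA 0.7.12 and fastp 0.20.0, with no role named. Not given in the sources used here are the peak calling threshold, the Tn5 shift and whether duplicate or mitochondrial reads were removed, which could change depth and narrow the counting intervals. The deposited table lists merged peaks, and its counts are whole reads per peak. The RPM deposited by the authors is the count plus 1 read times 1 constant per library, 0.01475 in Wtap-CKO and 0.0171 in Wtapflox/flox, as worked out from the values. The fold enrichment deposited by the authors was not used. In the authors' deposited table, log2 values compare RPM between libraries, Wtap-CKO over Wtapflox/flox, without centring. The distance to the start and the GO terms are the deposited annotation.

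Counts were divided by the reads in all peaks (CPM), and log2 ratios were taken after adding 0.5 CPM. The floor is the 25th percentile of mean CPM over all peaks, and a call is a 2-fold difference. Ratio intervals are exact conditional binomial (Clopper-Pearson) 95% intervals without the added CPM. Scripts in Python 3.11.15 with numpy 2.4.6, pandas 2.3.3 and scipy 1.17.1 were tested on simulated data. The peaks and lists were chosen with earlier results of these data known. Named are the 10 largest rises and 10 largest falls at or above the median signal, the 8 strongest peaks, the extremes of each list, the peaks nearest the 2-fold line, the runs with most reads changed and the 5 genes with most peaks. Further strong or neighbouring peaks of named genes and runs were chosen after their values were seen. The files do not pair gene IDs with symbols and the given gene table holds 0 Ensembl IDs, so lists by symbol, cell type markers among them, were replaced by GO terms. The planned motif search was not run, for want of a genome sequence. The gene taken as Wtap is the only one on chromosome 17 of 7 annotated to its methyltransferase complex. Alternatives covered the pseudocount, the scaling, the floor, the fold, the distance, autosomes and peaks called in both libraries.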

Additional observations from a re-analysis of the deposited data

How the results depend on the processing

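No paired analysis was possible because each genotype has 1 library, and for the same reason no replicate could be left out. Among the results run through the alternatives, none changed direction apart from those set by the scaling. The medians of the GO lists were not run through them. Those of extracellular matrix and heart development fell below 0 with the peaks under the floor included, as given above. The cause of the shifts was not tested. With the RPM in the authors' deposited table the median log2 ratio of the intergenic peaks was -0.15, with 370 higher and 668 lower. With the library totals that the RPM implies and the same pseudocount it was -0.10, with 58 higher and 102 lower. With those larger totals the 0.5 CPM stands for more reads, which draws ratios toward 0 and lowers both counts. Under the authors' RPM and under the implied totals, the share of reads in these peaks was 0.272 percentage points lower in Wtap-CKO (-0.272). By reads in peaks it was 0.638 higher. Centring on promoter peaks gave a median of 0.12. The counts of higher and lower peaks were 581 and 217 as reported. They were 2023 and 1197 at 1.5-fold, 14 and 4 at 4-fold, 1631 and 866 without a floor, 214 and 104 with a floor at the median, 241 and 78 with a pseudocount of 2 CPM, 187 and 73 among peaks called in both libraries, and 371 and 120 within 25 kb. The difference in the share of reads was 0.604 percentage points within 50 kb, 0.477 within 25 kb and 0.585 for peaks called in both. The median difference from promoters was 0.10 with a pseudocount of 2 CPM. Among peaks of 6 to 10 CPM, an alternative added after seeing the data, it was 0.10 and the intergenic median was 0.086, and peaks under 10 kb exceeded those beyond 50 kb by 0.10. Leaving out the 100 peaks with most reads per kb was also added afterwards. The comparison of near with far peaks has no value within 50 or 25 kb. Of 35 named peaks past 2-fold, none changed sign under any scaling or pseudocount tried, and 9 came under 2-fold in some. All 9 did so with the implied library totals and the pseudocount, and 5 with a pseudocount of 2 CPM. With the authors' RPM 1 did so, and with centring on promoter peaks 1 did.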
